A study of Mus musculus with 9 samples.

Results

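The inflammatory chemokines and interleukin-1 genes described here are Ccl2, Ccl3, Ccl4, Ccl7, Cxcl1, Cxcl2, Cxcl9, Cxcl16, Il1a and Il1b, 10 of the 19938 mouse genes measured. They were taken by gene symbol from the array's annotation, and each of the 10 was read by 1 probe set. Expression was measured on 9 arrays in 3 groups of 3. The AS cell lines are 3 separately derived hepatic angiosarcoma lines, an angiosarcoma being a cancer of the cells that line vessels. Each line grew out in extended culture of liver endothelial cells taken from a Notch1 knockout mouse with a tumour that could be seen. KO liver is liver of 3 MxCre Notch1 lox/lox mice, in which the interferon-inducible Mx promoter drives the recombinase, so that deletion is not limited to one liver cell type. WT liver is liver of 3 Notch1 lox/lox mice without Cre. All mice were C57Bl/6 and all, WT mice included, received 300 µg of polyinosinic-polycytidylic acid, a double-stranded RNA mimic that sets off an interferon response, at the age of 4 weeks on days 0, 3 and 6. The age at which livers were taken is not given in the labels. The deleted exon codes for the signal peptide of Notch1. Since only KO mice carried MxCre, Cre and the loss of Notch1 cannot be told apart, and since the lines were cultured and the livers were not, culture and tumour origin cannot be told apart either.

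Chemokines are small secreted proteins that draw leukocytes along a gradient by binding receptors on their surface. CC chemokines such as Ccl2 and Ccl7 attract monocytes through Ccr2, the CXC chemokines Cxcl1 and Cxcl2 attract neutrophils through Cxcr2, Cxcl9 attracts activated T cells through Cxcr3, and Cxcl16 is made as a membrane protein that Cxcr6 binds. Interleukin-1 alpha and beta act through a shared receptor and Myd88 to switch on NF-kB, a transcription factor that in turn drives many chemokine genes; interleukin-1 beta is first cut by caspase-1 in the inflammasome. In liver, Kupffer cells, the resident macrophages, are a main source of many of these signals.

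Promoters were matched in RefSeq (GRCm38.p6) for 6 of the 10 genes, Ccl3, Cxcl1, Cxcl2, Cxcl9, Il1a and Il1b. The 120 bases before the start are printed 5′ to 3′ for the 3 of them that hold a motif that was searched for, because Cxcl1 and Cxcl2 share one, and because Il1a was among the genes furthest apart between lines and livers. Capitals mark the motif. Cxcl1 is on the plus strand at chr5:90891125-90891244, Cxcl2 on the plus strand at chr5:90903779-90903898 and Il1a on the minus strand at chr2:129309973-129310092.
Cxcl1: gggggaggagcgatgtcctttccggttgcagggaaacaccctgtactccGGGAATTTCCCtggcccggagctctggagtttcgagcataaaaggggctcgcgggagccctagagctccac
Cxcl2: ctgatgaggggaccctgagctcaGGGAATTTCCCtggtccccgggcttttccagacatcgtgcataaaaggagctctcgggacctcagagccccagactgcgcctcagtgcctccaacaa
Il1a: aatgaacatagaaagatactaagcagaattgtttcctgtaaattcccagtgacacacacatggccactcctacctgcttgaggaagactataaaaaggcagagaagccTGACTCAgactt
In Cxcl1 and Cxcl2 the capitals are a pair of overlapping matches to the NF-kB consensus, 71 to 61 bases before the start in Cxcl1 and 97 to 87 bases before it in Cxcl2. In Il1a they are the AP-1 motif, searched as TGACTCA or TGAGTCA, 12 to 6 bases before the start. On both strands of the 250 bases before the start, 3.9% of 32851 promoters held the NF-kB consensus and 4.46% held the AP-1 motif. Of the 6 matched genes, 2 held the first and 1 the second. A match describes the letters only.

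Values are on a log2 scale, as robust multi-array averaging gave them, and the array medians over all genes ran from 6.96 to 7.17. The files hold no detection call, so a value below the median can be background and a fold against it understates a difference. Notch1, the targeted gene, had 8.75, 8.61 and 7.83 in the AS lines and 7.84, 8.75 and 8.52 in KO livers, against 11.69, 11.02 and 11.71 in WT livers. The labelled cell types were set against their markers. The 15 pan-endothelial genes averaged 6.40 to 6.66 in the AS lines, against 11.60 to 12.04 in KO livers and 11.58 to 11.67 in WT livers, and all 15 were called lower than in KO livers. Cdh5, the cadherin of endothelial junctions, was at 5.45 to 5.66 in the lines. The 7 bile duct and epithelial genes averaged 10.77 to 11.16 in the lines, with Krt8, a keratin of simple epithelia, at 13.14 to 13.36 and Epcam, an epithelial adhesion protein, at 5.56 to 6.02. Ptprb, an endothelial phosphatase gene, had 9.51, 7.85 and 8.97 and Egfl7 had 7.49, 8.25 and 7.75 in the lines, above the array medians. The lines were thus low in most markers of the cell type they are labelled as descending from, and they are called AS cell lines by label only. The 16 hepatocyte genes averaged 7.84 to 10.07 in the AS lines, 9.18 to 12.56 in KO livers and 11.35 to 12.47 in WT livers. In the lines 2 of the 16 were called lower than in KO livers and 7 lower than in WT livers, and 0 were called higher. Alb was at 12.31 to 13.67 in the lines, above the array medians, and Cyp2e1 at 5.23 to 5.58, below them. The protocol shared by all arrays names PHH as the source of the RNA, without spelling it out. It is therefore unsettled whether the liver RNA came from the whole organ, and values called liver values refer to whatever was extracted.

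Of the 10 genes, 9 were lower in the AS cell lines than in KO livers and the same 9 were lower than in WT livers, by 3.14-fold to 179-fold, in limma with Benjamini-Hochberg adjustment over all genes. Ccl3, Il1a, Cxcl9 and Cxcl2 differed most, and Ccl2, the main monocyte attractant, did not pass the test in either comparison. Among all genes 10.1% were called lower and 11.4% higher against KO livers, and 11.1% lower and 17.6% higher against WT livers; 0 of the 10 genes were called higher in either. For those 9 genes the groups did not overlap, which held in the lower direction for 16.7% of all genes against KO livers and for 19.5% against WT livers. The median log2 fold change of the 10 genes was -3.80 against KO livers and -4.19 against WT livers, with 0.05 and 0.02 over all genes. The 2 comparisons share the 3 AS arrays, so the second does not repeat the first independently. RNA of livers and of cultured lines can differ in its mix of cells, and fewer cells of a type and less RNA per cell cannot be told apart.

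**Figure D1:**
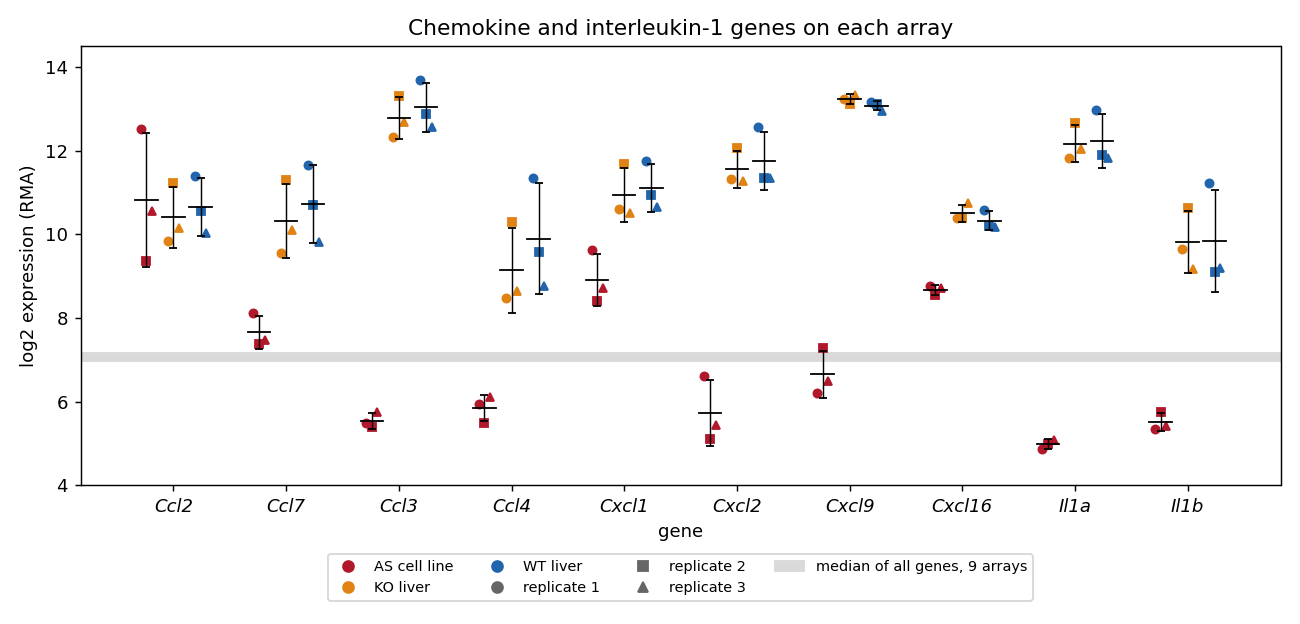
Log2 expression of the 10 genes on each of the 9 arrays, with AS cell lines, KO livers and WT livers side by side; points are arrays and the black marks are group means with SD (n = 3), and the grey band holds the medians of all genes on the 9 arrays. The AS points lie below all liver points for 9 genes, while for Ccl2 they run from 9.36 to 12.53 and span the liver values.

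Ccl2 had 12.53, 9.36 and 10.57 in the AS cell lines, 9.84, 11.22 and 10.15 in KO livers and 11.39, 10.55 and 10.03 in WT livers. Line 1 was above every liver and line 2 below every liver, so the groups overlapped. The lines differed by 3.16 log2 units, an 8.97-fold range, and 0.923% of all genes had a wider range over the 3 lines. The lines minus KO livers gave 0.42 ± 0.87 (SE; 95% interval -1.78 to 2.61; limma adjusted p = 0.793), and the lines minus WT livers gave 0.16 ± 0.84 (SE; 95% interval -1.93 to 2.25; adjusted p = 0.910). These intervals reach past a 3-fold difference either way, so the test does not show equal levels. Without line 1 the values were -0.44 and -0.69, also not past the threshold. Line 2, with the least Ccl2, had the highest average of the 16 hepatocyte genes among the lines. It was 10.07 there, 8.06 in line 1 and 7.84 in line 3, so lines 1 and 3 did not continue the Ccl2 order. The 8 proliferation genes averaged 10.78, 7.28 and 8.81 in lines 1, 2 and 3, the same order as Ccl2. The part of either list in the Ccl2 values was not tested.

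Ccl7, a second monocyte attractant that binds Ccr2, had 8.11, 7.37 and 7.48 in the AS cell lines, 9.56, 11.30 and 10.09 in KO livers and 11.66, 10.69 and 9.81 in WT livers. Every line was below every liver. It was 6.33-fold lower in the lines than in KO livers (log2 fold change -2.66 ± 0.49 SE, limma adjusted p = 0.0170) and 8.37-fold lower than in WT livers (-3.07 ± 0.49 SE, adjusted p = 0.00757). Of the single arrays left out, KO replicate 3, line 2 and line 3 each cost the call against KO livers, with adjusted p of 0.0534 to 0.0584.

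Ccl3 and Ccl4, which attract macrophages, NK cells and T cells, are neighbouring genes. Ccl3 had 5.49, 5.39 and 5.76 in the AS cell lines, 12.32, 13.31 and 12.68 in KO livers and 13.68, 12.86 and 12.55 in WT livers. All lines were below their array's median and all livers above it. Ccl3 was 150-fold lower in the lines than in KO livers (log2 fold change -7.23 ± 0.27 SE, limma adjusted p = 1.14e-04) and 179-fold lower than in WT livers (-7.49 ± 0.31 SE, adjusted p = 6.1e-05). Ccl4 had 5.94, 5.49 and 6.10 in the AS cell lines, 8.48, 10.29 and 8.63 in KO livers and 11.35, 9.57 and 8.77 in WT livers. It too was below the median in every line, and it varied more than Ccl3 among livers of one genotype. Ccl4 was 9.75-fold lower than in KO livers (-3.29 ± 0.53 SE, adjusted p = 0.0112) and 16.6-fold lower than in WT livers (-4.05 ± 0.66 SE, adjusted p = 0.00800). Without WT replicate 1 the value against WT livers was -3.32 (adjusted p = 0.00450).

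Cxcl1 had 9.61, 8.41 and 8.70 in the AS cell lines, 10.61, 11.67 and 10.50 in KO livers and 11.75, 10.93 and 10.65 in WT livers. Every line was below every liver. It was 4.05-fold lower in the lines than in KO livers (log2 fold change -2.02 ± 0.45 SE, limma adjusted p = 0.0314) and 4.60-fold lower than in WT livers (-2.20 ± 0.42 SE, adjusted p = 0.0131). The first of these calls was lost without any 1 KO liver or without line 2 or 3, with adjusted p of 0.0602 to 0.0889. Cxcl2 had 6.61, 5.11 and 5.44 in the AS cell lines, 11.31, 12.07 and 11.28 in KO livers and 12.56, 11.34 and 11.35 in WT livers. The lines were below their medians. Cxcl2 was 57.0-fold lower than in KO livers (-5.83 ± 0.45 SE, adjusted p = 0.00110) and 65.3-fold lower than in WT livers (-6.03 ± 0.52 SE, adjusted p = 8.43e-04).

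Cxcl9, which interferon-gamma induces, had 6.19, 7.28 and 6.48 in the AS cell lines, 13.24, 13.10 and 13.34 in KO livers and 13.15, 13.12 and 12.94 in WT livers. The 6 livers lay within 0.40 log2 units of each other, and 59.6% of all genes had a wider range over these arrays. Cxcl9 was 95.2-fold lower in the lines than in KO livers (log2 fold change -6.57 ± 0.29 SE, limma adjusted p = 1.91e-04) and 85.6-fold lower than in WT livers (-6.42 ± 0.29 SE, adjusted p = 8.3e-05). Cxcl16 had 8.77, 8.54 and 8.71 in the AS cell lines, 10.38, 10.39 and 10.74 in KO livers and 10.59, 10.20 and 10.18 in WT livers. The groups of livers overlapped each other, and every line was below every liver. Cxcl16 was 3.55-fold lower than in KO livers (-1.83 ± 0.13 SE, adjusted p = 8.65e-04) and 3.14-fold lower than in WT livers (-1.65 ± 0.14 SE, adjusted p = 8.90e-04). Of the proteases that release it from the membrane, Adam17 was also lower in the lines, by 1.14 on the log2 scale against KO livers (adjusted p = 0.00913), while Adam10 was at -0.28 and did not pass.

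Il1a, an alarm signal released by damaged cells, had 4.86, 4.99 and 5.09 in the AS cell lines, 11.82, 12.66 and 12.03 in KO livers and 12.96, 11.90 and 11.81 in WT livers. All lines were below their array's median. It was 145-fold lower than in KO livers (log2 fold change -7.18 ± 0.23 SE, limma adjusted p = 7.9e-05) and 151-fold lower than in WT livers (-7.24 ± 0.32 SE, adjusted p = 8.3e-05). Il1b had 5.34, 5.75 and 5.42 in the AS cell lines, 9.65, 10.62 and 9.16 in KO livers and 11.23, 9.09 and 9.18 in WT livers. The lines were again below their medians, and WT replicate 1 stood above the other livers. Il1b was 19.8-fold lower than in KO livers (-4.31 ± 0.39 SE, adjusted p = 0.00181) and 20.2-fold lower than in WT livers (-4.33 ± 0.60 SE, adjusted p = 0.00442). Without WT replicate 1 the value against WT livers was -3.63 (adjusted p = 4.46e-04).

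**Figure D2:**
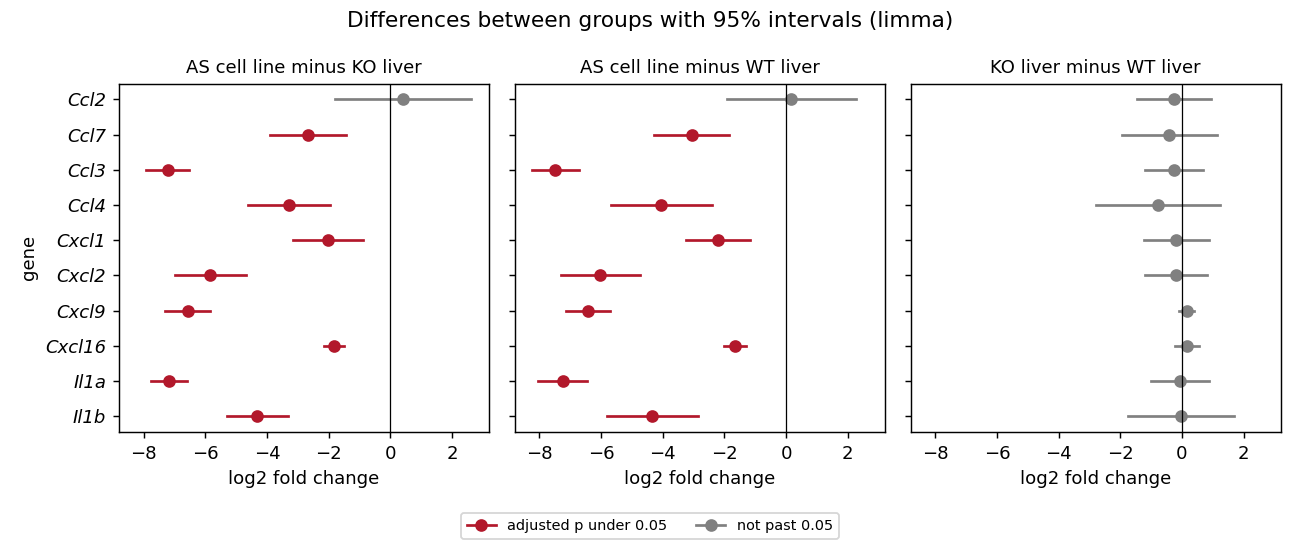
Log2 fold change of each gene with its 95% interval from limma, for AS cell lines minus KO livers, AS cell lines minus WT livers and KO livers minus WT livers; red marks an adjusted p under 0.05. In the first and second panels 9 of 10 intervals lie below 0, and in the third all 10 include 0.

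Cxcl1 and Cxcl2, which neighbour each other on chromosome 5 with 0 annotated protein-coding genes between them, differed by unequal amounts between lines and livers. Within each array, Cxcl1 minus Cxcl2 was 3.19 ± 0.16 in the AS lines, -0.63 ± 0.20 in KO livers and -0.64 ± 0.21 in WT livers (SD, n = 3 each). Against KO livers the drop of Cxcl2 thus exceeded that of Cxcl1 by 3.82 log2 units, and since Cxcl2 was below the array median in the lines its drop may be understated. For Ccl2 and Ccl7, neighbours on chromosome 11, Ccl2 minus Ccl7 was 3.16 ± 1.22 in the AS lines, 0.09 ± 0.18 in KO livers and -0.06 ± 0.25 in WT livers. In both pairs the lines did not overlap either liver group; each 2-sided exact permutation test of lines against livers gave p = 0.1, the smallest that 3 arrays against 3 allow, and 0.15 after adjustment over 12 such tests, so neither passed. The neighbour pairs Ccl3 with Ccl4 and Il1a with Il1b were among the 12 tests but are not compared, because both genes of each were below the array median in every line. The level of one probe set was not read against another.

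Between KO livers and WT livers none of the 10 genes passed the test in limma, and in all 10 the values of the groups overlapped. Over all genes 0% passed in either direction, with a smallest adjusted p of 0.0995. At an unadjusted p under 0.05, 0 of the 10 genes and 22.5% of all genes were called, and groups did not overlap for 0 of the 10 genes and 30.3% of all genes. Cxcl9 gave 0.15 (95% interval -0.08 to 0.39, adjusted p = 0.374) and Cxcl16 gave 0.18 (-0.22 to 0.57, adjusted p = 0.513), so for these a 2-fold change either way lies outside the interval. For the other 8 genes the log2 fold change ran from -0.76 for Ccl4 to -0.02 for Il1b, with adjusted p of 0.579 to 0.987. Ccl4 was at -0.036 without WT replicate 1 and at -1.34 without KO replicate 2, neither past the threshold. The Ccl4 interval, -2.77 to 1.25, and the Il1b interval, -1.75 to 1.70, were the widest of the 10, and changes within them were not detectable with 3 livers a group.

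Among the 6 livers most of the 10 genes had a shared order, described here after their values were seen. WT replicate 1 was the highest and KO replicate 2 the second highest of the 6 livers for 8 of the 10 genes, all but Cxcl9 and Cxcl16; 3.38% of all genes had this order. The same 2 livers were the top pair, in either order, for 14 of 15 Kupffer cell and macrophage genes, for 6 of 14 NF-kB factors and inhibitors and for 5.45% of all genes. They were also the top pair for 5 of 17 inflammatory NF-kB targets and 2 of 8 inflammasome genes. The pair led for 3 of 8 monocyte genes, 3 of 11 neutrophil genes and 0 of 15 T and NK cell genes. It led for 0 of 16 hepatocyte genes and 0 of 15 pan-endothelial genes. In the strict order counted for the 10 genes, WT replicate 1 first and KO replicate 2 second, the Kupffer cell list had 8 of 15. The Kupffer cell list averaged 11.09, 11.75 and 11.13 in KO livers and 11.72, 11.14 and 11.02 in WT livers. The part of macrophage content in the order of the chemokine values was not tested. From the lowest to the highest liver Ccl4 ranged over 2.88 log2 units and Il1b over 2.14, while Cxcl16 ranged over 0.56. Without WT replicate 1 and KO replicate 2 together, which was tried after their values were seen, 0 of the 10 genes passed between KO and WT livers.

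**Figure D3:**
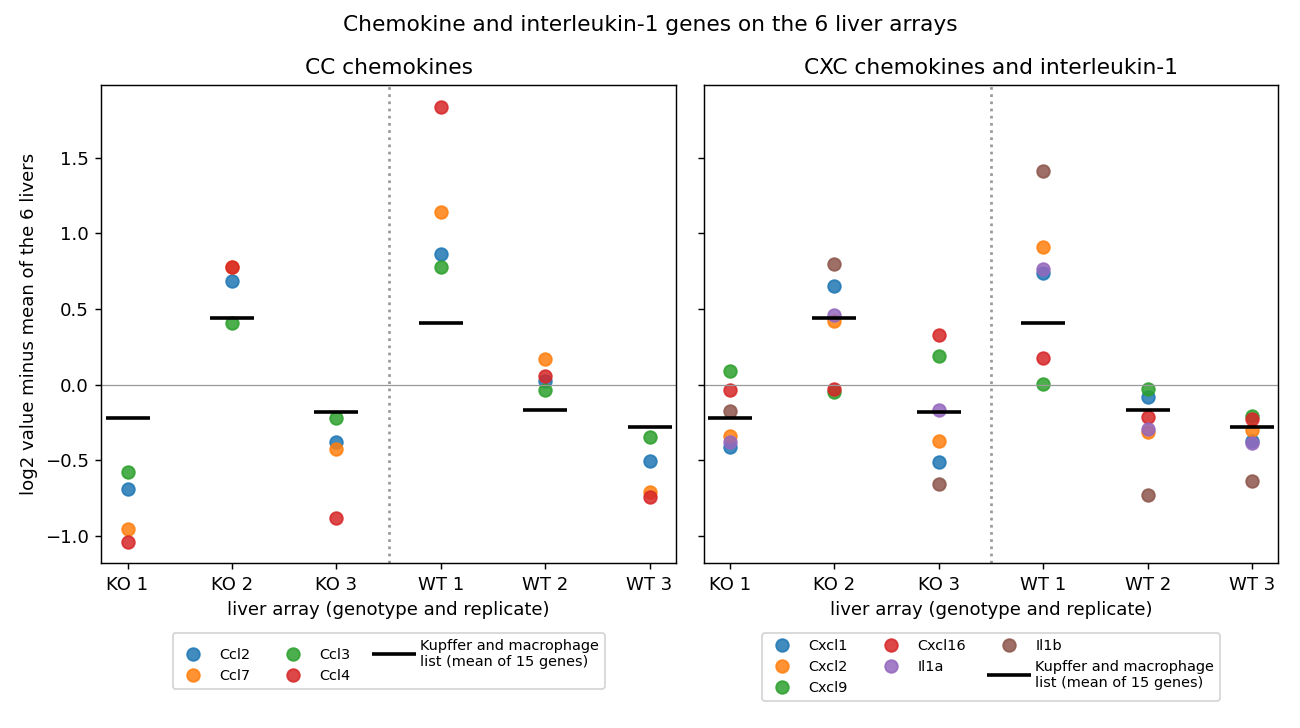
Log2 value of each gene minus its mean over the 6 livers, for the 3 KO and 3 WT livers, with CC chemokines on the left and CXC chemokines and interleukin-1 on the right; black bars give the mean of 15 Kupffer cell and macrophage genes on the same scale. KO replicate 2 and WT replicate 1 stand above the other livers for 8 genes and for the macrophage list, while Cxcl9 and Cxcl16 stay close to 0.

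Macrophage and pan-leukocyte genes were lower in the lines as well, and genes of other leukocytes were so in part. All 15 Kupffer cell and macrophage genes were called lower in the AS lines than in KO livers, and their average was 5.87 to 6.13 in the lines, against 11.09 to 11.75 in KO livers and 11.02 to 11.72 in WT livers. Adgre1, which codes for the macrophage antigen F4/80, had 5.46, 5.46 and 5.46 in the lines, 11.14, 11.71 and 11.19 in KO livers and 11.70, 11.20 and 11.14 in WT livers. All 7 pan-leukocyte genes were lower too, with averages of 5.58 to 6.29 in the lines and 9.96 to 10.48 in KO livers. Called lower against KO livers were 4 of 8 monocyte genes, 2 of 11 neutrophil genes, 12 of 15 T and NK cell genes and 1 of 3 B cell genes; 1 T and NK cell gene was called higher. In KO livers the neutrophil list averaged 5.65 to 6.86, the T and NK cell list 6.59 to 6.77 and the B cell list 5.87 to 6.26. These averages were below the array medians, where values can be background, so the counts for these lists are limited. The monocyte list averaged 7.38 to 8.02 in KO livers. The part of all these cells in the lower chemokine and interleukin-1 values was not tested. On the same 3 arrays Ccl2, Ccl7, Cxcl1 and Cxcl16 were above the array median and the other 6 genes, save Cxcl9 in line 2, below it.

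The other chemokines went both ways. Of 27 measured, 3 rose and 11 fell in the lines against KO livers (median -0.46), and 3 rose and 15 fell against WT livers (median -0.73). Among all genes 11.4% rose and 10.1% fell against KO livers, and 17.6% rose and 11.1% fell against WT livers. Ccl20, which attracts Ccr6-bearing lymphocytes and dendritic cells, rose, with 10.72, 11.26 and 9.58 in the AS lines, 5.82, 5.34 and 5.65 in KO livers and 6.29, 5.93 and 6.01 in WT livers (4.91 ± 0.44 SE against KO livers, limma adjusted p = 0.00183). Cxcl10, a Cxcr3 ligand like Cxcl9, fell by 5.90 against KO livers (adjusted p = 2.54e-04). Cxcl5, a Cxcr2 ligand like Cxcl1 and Cxcl2, had 9.63, 5.57 and 8.77 in the lines and stayed between 5.03 and 5.27 in all 6 livers; it did not pass the test. Line 2 was the lowest line for Cxcl5, as it was for Ccl2, Ccl3, Ccl4, Ccl7, Cxcl1, Cxcl2 and Cxcl16. Line 1 was the lowest for Cxcl9, Il1a and Il1b. Ccl3, Ccl4, Cxcl2, Il1a and Il1b were below the array median in every line and can be background, so their order among lines is uncertain. For Cxcl16, 66.5% of all genes had a wider range over the lines. The share of all genes lowest in line 2 was not counted.

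Of 22 measured chemokine receptors, 0 rose and 10 fell in the lines against KO livers, and 0 rose and 11 fell against WT livers. Ccr1, Ccr2 and Cxcr2, receptors for Ccl3, Ccl2 and Cxcl1, were below the median on all 9 arrays, at 4.44 to 6.34. The largest fall was that of Ccrl2, an atypical receptor that does not signal through G proteins, at -5.10 ± 0.54 SE against KO livers (limma adjusted p = 0.00308). Cxcr6, the Cxcl16 receptor, had 5.80, 5.89 and 6.30 in KO livers and 5.98, 7.81 and 8.23 in WT livers, and the difference of -1.34 did not pass (adjusted p = 0.255). Its higher values fall in the WT livers that are higher in the list of T and NK cell genes, whose average was 6.59 to 6.77 in KO livers and 6.42, 8.48 and 8.41 in WT livers; its part was not tested. Ifng, whose product induces Cxcl9, followed the same livers, with 6.06, 6.12 and 6.19 in KO livers and 6.12, 8.79 and 8.79 in WT livers, while Cxcl9 itself lay between 12.94 and 13.34 in all 6.

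Some genes of interleukin-1 processing and signalling were lower in the lines. Of 8 inflammasome genes, 0 rose, 5 fell and 3 did not pass against KO livers (median -2.22). Casp1, which cuts the interleukin-1 beta precursor, had 4.82, 4.93 and 4.88 in the AS lines, 8.51, 8.59 and 8.76 in KO livers and 8.69, 7.89 and 8.24 in WT livers (-3.75 ± 0.09 SE against KO livers, limma adjusted p = 3.6e-05). Nlrp3, the sensor that recruits it, fell by 3.96 (adjusted p = 0.00349). Between KO and WT livers all 8 inflammasome genes had positive log2 fold changes (median 0.33), 0 of which passed. Of 14 other measured genes of interleukin-1 family signalling (receptors, adaptors, related ligands and antagonists), 1 rose, 6 fell and 7 did not pass against KO livers. Il1rn, the receptor antagonist, fell by 1.66 (adjusted p = 0.0213), and Il18bp, which binds interleukin-18, fell by 2.44 (adjusted p = 7.55e-04). Of these 14 genes, 4 had positive and 10 negative log2 fold changes against KO livers. Ranked by size and not by the test, the largest positive one was 2.25, for Il33, a related ligand. Il33 had 10.27, 7.84 and 9.90 in the lines, 6.72, 7.36 and 7.18 in KO livers and 7.51, 7.97 and 7.75 in WT livers. Its SD was 1.31 in the lines and 0.33 in KO livers, and line 2 lay within the values of the WT livers.

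In the NF-kB and interferon-gamma lists more genes fell than rose. Of 14 NF-kB factors and inhibitors 1 rose, 8 fell and 5 did not pass in the lines against KO livers. Of 17 inflammatory NF-kB targets 1 rose, 7 fell and 9 did not pass (median -0.66). The values of these targets ran from -3.99 for Plau to 2.76 for Lcn2. Lcn2 had 9.74, 13.71 and 13.20 in the lines and 9.02, 12.38 and 6.96 in KO livers, so these groups overlapped. Nfkbia, the inhibitor that NF-kB itself induces, fell by 2.90 (limma adjusted p = 3.88e-04), and Ikbkg, the regulatory subunit of the kinase that removes it, rose by 1.74 (adjusted p = 0.00174). Tnf fell by 3.24 (adjusted p = 0.00353). Il6 fell by 3.46 (adjusted p = 0.0215) and, among livers, was highest in WT replicate 1 at 10.98 and KO replicate 2 at 9.37, the pair that led for 8 of the 10 genes. Of 16 genes of the interferon-gamma axis 1 rose and 11 fell (median -2.05), led by Gbp4, a guanylate-binding protein, at -4.80 ± 0.30 SE (adjusted p = 5.32e-04). Between KO and WT livers 0 genes of these lists passed.

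**Figure D4:**
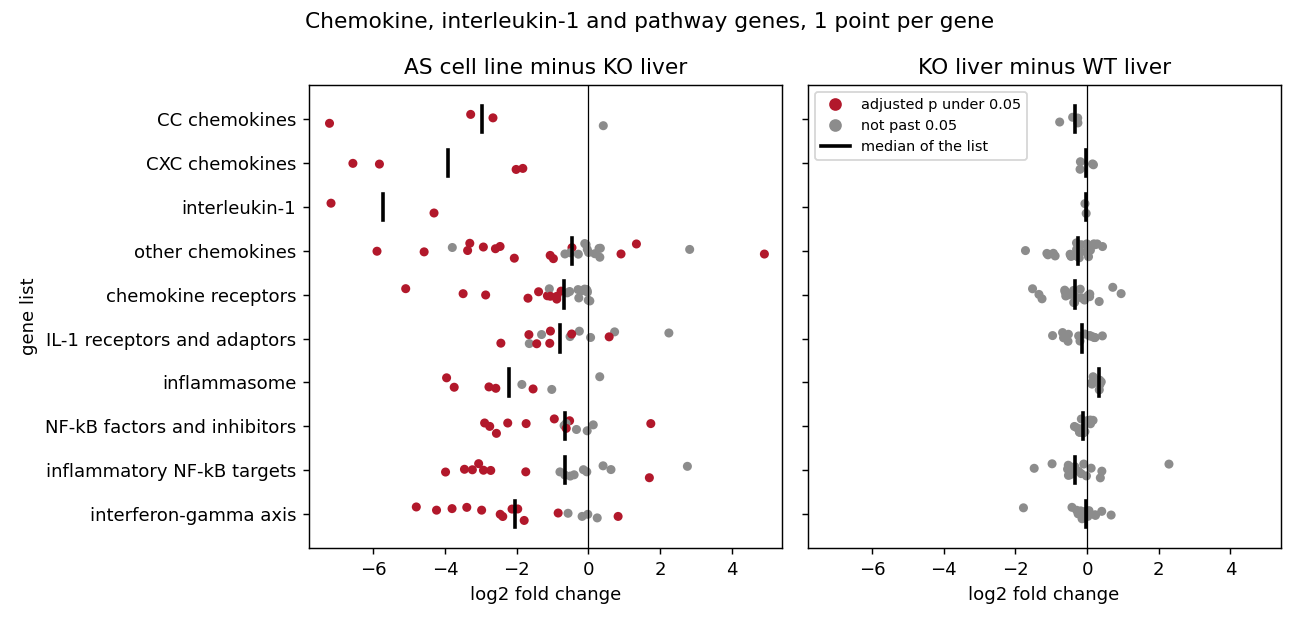
Log2 fold change of every measured gene of the chemokine, interleukin-1 and related lists, for AS cell lines minus KO livers (left) and KO livers minus WT livers (right); points are genes, red points have an adjusted p under 0.05 and bars are list medians. The points of the 10 genes reach to -7.23 on the left, and no point on the right is red.

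For each of the 10 genes the gene of highest Pearson correlation over the 9 arrays was found, as a description. Because livers and lines lie far apart, most of such a correlation is the gap between them, and arrays of a group share tissue and preparation. Ccl3 was closest to Folr2 (r = 0.9995), a receptor of resident macrophages, and Il1a to Ctss (r = 0.9996), a lysosomal protease of antigen-presenting cells. Cxcl2 was closest to Socs3 (r = 0.998), an inhibitor of cytokine signalling, Cxcl16 to Myd88 (r = 0.998) and Il1b to Spic (r = 0.994), a transcription factor of red pulp and liver macrophages. Cxcl9 was closest to Bgn (r = 0.999), Ccl4 to Itpkc (r = 0.993), Ccl7 to Arg2 (r = 0.989) and Cxcl1 to Dnajb1 (r = 0.987). Ccl2, without such a gap, had the lowest value, 0.916 with Apba1. Its correlation with its neighbour Ccl7 was 0.19 over the 9 arrays and 0.994 over the 6 livers.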

How the data were processed

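Expression was measured in 3 AS cell lines, 3 KO livers and 3 WT livers. The authors deposited 1 log2 value per probe set and array, produced with RMA and oligo per the submitters' processing notes; the sources used here give neither versions nor a genome build. The arrays have almost the same distribution of values, which would hide a shift shared by most genes. Per the labels' protocols, 250 ng of total RNA was labelled with a whole-transcript kit.

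Of 35556 probe sets, 21789 had 1 gene symbol in the platform annotation, 1621 had several and 12146 were not listed. The probe set of highest mean was kept per gene, leaving 19938. For each comparison its 6 arrays were fitted in limma 3.58.1 (R 4.3.3) without covariates, 2-sided, with Benjamini-Hochberg adjustment over 19938 genes and a threshold of 0.05. Exact permutation tests used scipy 1.17.1; figures used matplotlib 3.10.9. Arrays were taken as independent animals or lines, as the labels give them, and their number limits the precision.

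The 10 genes, the 9 pathway and 11 cell lists and the tests were chosen with earlier results of these data known. Of 267 list entries 15 were not measured. Besides the 10 genes and Notch1, genes are named from the top of each list ranked by absolute log2 fold change. The gene most like each of the 10 is named too. Not every gene at the top of a list is described, and Vsig4, first of the Kupffer cell and macrophage list, is not. Adam10, Adgre1, Casp1, Ccr1, Ccr2, Cdh5, Cxcl5, Cxcr2 and Cxcr6 were named for their role or direction where they lay outside that ranking. The same holds for Egfl7, Epcam, Ifng, Ikbkg, Il1rn, Il6, Krt8, Lcn2, Ptprb and Tnf. On simulated data, in which genes vary independently, 100 genes drawn from all genes were changed by 1 log2 unit. Of these, 39 were recovered for AS against KO, 47 for AS against WT and 68 for KO against WT. These counts are not the power for the 10 genes, whose spread differs. Over the WT livers 0.226% of all genes had a wider range than Ccl4, 0.481% than Il1b and 55.1% than Cxcl9.

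Alternatives were leaving out each array, array weights, a block for the replicate number, a single fit of all 9 arrays, an intensity trend, averaging a gene's probe sets, dropping dim genes and 75th percentile scaling; for KO against WT livers also a hepatocyte covariate, and leaving out WT replicate 1 with KO replicate 2, which was added after seeing the data.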

Additional observations from a re-analysis of the deposited data

How the results depend on the processing

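For AS against WT livers, 9 of the 10 genes were called lower under every alternative run, and for KO against WT livers 0 were called under every one. For AS against KO livers 9 were called lower; 7 were with the replicate block, where Ccl7 (adjusted p = 0.0556 in limma) and Cxcl1 (adjusted p = 0.0836) missed the threshold, and 7 to 9 with an array left out. Same-numbered deviations correlated at 0.07 to 0.34 for AS and KO and at -0.16 to 0.17 for AS and WT. For KO and WT they correlated at -0.39 to 0.43. In these comparisons 4, 3 and 3 of 6 arrays were closest to their own number. Each array was compared with all arrays of the other group for these counts. How far such counts spread without pairing was not computed, so whether the replicate numbers pair the samples was not settled.

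Signs turned only in values that passed no test. Ccl2 gave -0.44 for AS against KO without line 1, where an array left out gave up to 1.14, and for AS against WT -0.69 without line 1, -0.15 without WT replicate 3 (up to 0.89 with an array left out) and -0.050 with scaling to the 75th percentile. For KO against WT that scaling gave -0.028 for Cxcl9 and -0.0032 for Cxcl16; it moved the median of all genes to -0.18 (AS against WT: -0.19). Array weights gave 0.042 for Il1a and 0.31 for Il1b, and the hepatocyte covariate 0.093 for Cxcl1, 0.018 for Il1a and 0.17 for Il1b. Without WT replicate 1, Ccl2 was at 0.11, Ccl3 at 0.064, Ccl7 at 0.067, Cxcl1 at 0.14, Cxcl2 at 0.21, Il1a at 0.31 and Il1b at 0.67. At the other end, without KO replicate 2, Ccl2 was at -0.66, Ccl3 at -0.53, Ccl7 at -0.89, Cxcl1 at -0.56, Cxcl2 at -0.45, Il1a at -0.30 and Il1b at -0.43. Without KO replicate 1, Ccl2 was at 0.026, Il1a at 0.12 and Il1b at 0.058, and without KO replicate 3, Cxcl1 was at 0.026, Il1a at 0.011 and Il1b at 0.30. Without WT replicate 1 and KO replicate 2 together, Il1a was at 0.064 and Il1b at 0.27.

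Over all genes, KO against WT gave 0 higher and 0 lower as reported, 2 lower with all 9 arrays in one fit, 3905 higher and 1839 lower with array weights, 1 higher with the hepatocyte covariate and 2687 higher and 1667 lower without WT replicate 1 and KO replicate 2. With 1 array left out the ranges were 0 to 1671 higher and 0 to 278 lower. For AS against KO they were 986 to 2241 higher and 1287 to 1807 lower, where all arrays gave 2268 and 2007, and for AS against WT 1931 to 3486 and 1466 to 2099, where all arrays gave 3506 and 2209. Scaling to the 75th percentile split AS against WT into 2476 higher and 2884 lower. For AS against WT livers, leaving out WT replicate 1 moved Ccl4 to -3.32 and Il1b to -3.63, and for KO against WT livers leaving out 1 array put Ccl4 between -1.34 and -0.036. Leaving out an array also leaves fewer samples; the cause of the other shifts was not tested. Probe sets near background limit what can be said of a gene's level in the lines.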
